A study of Mus musculus with 19 samples.

Results

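The genes described here encode the proteins of the cytosolic ribosome and their close paralogues, in 19 mouse lymphomas. They were chosen by symbol alone, as rows named Rpl or Rps with a number, plus Rplp0, Rplp1, Rplp2 and Rpsa, with the Rps6k kinases and the pseudogene rows left out. This gave 83 of the 21086 genes in the table, of which 43 encode large subunit proteins, 31 small subunit proteins, 3 the acidic stalk and 6 are paralogues (Rpl22l1, Rpl7l1, Rps27l, Rpl39l, Rpl3l and Rps4l). The 77 genes that are not paralogues are called canonical below. The symbol rule did not reach Fau, which encodes a small subunit protein fused to a ubiquitin-like protein, or Rpl36al, Rpl37rt and Rps27rt.

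All 19 tumours arose in mice carrying Eμ-Myc (Em-Myc in the labels), a transgene that puts Myc under the enhancer of the immunoglobulin heavy chain locus and so acts in the B lineage, so no group lacks the transgene. The mice were wild type for Bptf (Bptf+/+), a subunit of the NURF chromatin remodelling complex, or heterozygous for a deletion allele (Bptf+/Δ). Wild-type tumours were early (6, onset at 9 to 17 weeks) or late (5, 28 to 76 weeks), and so were Bptf+/Δ tumours (4 early, 8 to 13 weeks, and 4 late, 30 to 66 weeks). Each library is a tumour of its own, and onset class cannot be told apart from the age of the mouse. Reads of the endogenous Myc gene and of the transgene share one row and cannot be told apart.

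A ribosome joins a small subunit, which decodes the mRNA, to a large subunit, which forms the peptide bond and carries a stalk that recruits translation factors. Cells make the ribosomal proteins in near equal numbers, and many of their mRNAs open with a run of pyrimidines, the terminal oligopyrimidine tract, through which mTOR signalling and LARP1 govern their translation. Myc is known to raise ribosome production through RNA polymerase I, the nucleolar processing factors and the ribosomal protein genes, and in Eμ-Myc mice a reduced dose of the large subunit gene Rpl24 is known to delay lymphoma.

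The 30 bases centred on the annotated start (15 on each side) show the pyrimidine run of 4 canonical genes and of the paralogue Rpl22l1, beside Rpl22 and the muscle paralogue Rpl3l, which hold no run of that length in these 30 bases. Capitals mark runs of C and T of at least 6 bases. Within 50 bases of the start, Rpl22 and Rpl3l do hold a run of at least 8 pyrimidines opening with C, as counted below. Sequences are from RefSeq on GRCm38.p6, written 5′ to 3′ on the gene's own strand, at chr4:86857353-86857382 (minus strand, Rps6), chr2:39005117-39005146 (minus, Rpl35), chr14:18270972-18271001 (minus, Rpl15), chr7:109519180-109519209 (plus, Rpl27a), chr3:28805493-28805522 (plus, Rpl22l1), chr4:152325711-152325740 (plus, Rpl22) and chr17:24727811-24727840 (plus, Rpl3l).
Rps6: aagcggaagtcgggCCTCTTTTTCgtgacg
Rpl35: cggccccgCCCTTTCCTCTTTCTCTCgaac
Rpl15: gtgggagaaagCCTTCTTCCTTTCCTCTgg
Rpl27a: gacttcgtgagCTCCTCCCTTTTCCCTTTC
Rpl22l1: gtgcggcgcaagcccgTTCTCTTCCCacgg
Rpl22: ttcgccctgggaaaagcaatagctggccga
Rpl3l: gagtgttctagctctgtcatttgacctctg

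RefSeq promoter windows of 300 bases (250 before and 50 after the start) matched 62 of the 83 genes. A run of at least 8 pyrimidines opening with C, on the gene's strand and within 50 bases of the start, was present in 52 of the 62 (83.9%), against 32% of 27025 genes with a window. The ETS letters CCGGAAG, on either strand, were in 26 of the 62 (41.9%) against 9.93% of all, and the YY1 letters AAGATGGC in 6 (9.68%) against 3.19%. The Myc E-box CACGTG was in 6 of the 62 (9.68%, Rpl13a, Rpl14, Rpl19, Rpl23, Rpl34 and Rps19) against 8.09%, and TATAAA in 7 (11.3%) against 15.7%. CACGTG reads the same on both strands. These are matches of letters, and the annotated starts are not exact to the base.

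Depth ranged from 8297856 to 12497732 reads on genes per library, and all 83 genes passed the filter on low values (at least 1 normalised read in at least 4 libraries). Bptf lay between 408 and 1573 normalised reads in the 8 Bptf+/Δ tumours and between 1665 and 2586 in the 11 wild-type tumours, without overlap. The summed B cell markers (9 genes) were 782 in Bptf+/Δ early replicate 2 and 8449 to 38119 in the other libraries. Bptf+/Δ early replicate 2 held 1001390 normalised reads on 9 cartilage and muscle markers, against 25.6 to 11083 in the others, so the defining markers of its labelled cell type were low. Wild-type early replicate 6 was led by the salivary gene Bpifa2 and Bptf+/Δ late replicate 4 by Igha, the immunoglobulin alpha constant region, while Eef1a1 led the other libraries except the cartilage-rich one. In such bulk samples, fewer cells of a type and less RNA per cell cannot be told apart.

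The 83 genes took a median of 12.7% of the reads on genes, from 3.38% in Bptf+/Δ early replicate 2 to 27.0% in Bptf+/Δ late replicate 2. The share was 11.3% ± 1.36 (SD, n = 6) in wild-type early and 14.2% ± 1.26 (SD, n = 5) in wild-type late tumours. In wild-type early tumours it ran from 9.85% through a median of 10.9% to 13.3%. In wild-type late tumours it was 13.0%, 13.1%, 14.4%, 16.1% and 14.3%, and the lowest of these were below the highest early tumour. The Bptf+/Δ early tumours had 12.6%, 3.38%, 12.3% and 11.2%, and the Bptf+/Δ late tumours 12.7%, 27.0%, 12.9% and 15%. Each Bptf+/Δ group held one library far from its others, and the mean was 9.84% ± 4.35 (SD, n = 4) early and 16.9% ± 6.81 (SD, n = 4) late.

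**Figure D1:**
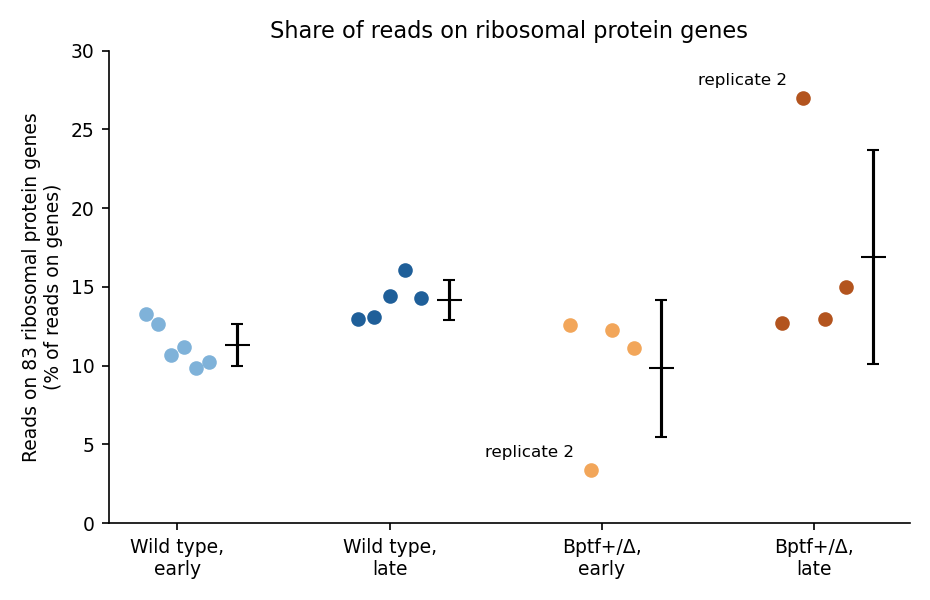
Percent of reads on the 83 ribosomal protein genes in each tumour (points), by genotype and onset class, with the mean and SD of each group (bar and whiskers). The wild-type late tumours sit between 13.0% and 16.1%, and the labelled Bptf+/Δ libraries at 3.38% and 27.0% stand apart.

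Bptf+/Δ late replicate 2 also differed from the rest in transcripts outside the family. Genes with a principal mRNA under 1000 bases that are not ribosomal protein genes (564 with a mean of at least 100 normalised reads) stood 1.12 above their own mean over tumours (median, log2) in it. Genes with an mRNA over 3000 bases (4276) stood at -0.51 there. The canonical ribosomal protein genes, whose mRNAs are short, stood at 1.58. In Bptf+/Δ late replicate 4 the same 3 medians were 0.35, -0.27 and 0.69, and in Bptf+/Δ early replicate 2 they were -0.42, 0.05 and -1.50. Bptf+/Δ late replicate 2 was also the library with the Bptf level of 408. The part of mRNA length in the levels of the family was not tested.

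Per kilobase of principal mRNA, the most abundant members were Rps12 (56983 normalised reads per kilobase, mean over tumours), Rpl41 (54832), the stalk gene Rplp1 (51452) and Rps18 (40904). Rpl41 encodes the smallest protein of the ribosome, and Rps18 and Rps12 proteins of the small subunit head and beak. At the other end of the canonical genes stood Rpl13a with 1358 and Rpl24 with 1868 per kilobase. Reads of ribosomal protein genes, high or low, are hard to assign, since processed pseudogenes copy their mRNAs. Of the 50-base words in Rpl24's principal mRNA, 81.7% also occur in transcripts of other annotated genes, and for Rpl13a 57.4%. For the most abundant members the share was 90.1% (Rps12), 53.1% (Rpl41), 60% (Rplp1) and 86.7% (Rps18). The part of shared words in the low levels of Rpl13a and Rpl24 was not tested. Over the 82 members with a principal transcript the median was 54.5%, and 48 were over 50%. Levels of members that share many words are therefore uncertain, and 46 pseudogene rows of the table held 0.0786% as many reads as the members.

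The canonical genes moved as a block from tumour to tumour. All 77 had their lowest level in Bptf+/Δ early replicate 2 and their highest in Bptf+/Δ late replicate 2. The SD of a canonical gene over the 19 tumours was 0.49 to 0.74 (log2, median 0.61), and after subtraction of the mean of the other canonical genes it was 0.07 to 0.27 (median 0.15). Pearson's r of a gene with that mean was 0.921 to 0.993 (median 0.973, n = 19 tumours, which share library scaling). Spearman's rho, on which the 2 extreme libraries weigh less, ran from 0.781 (Rps24) to 0.986 (Rpl18). The tightest were Rpl27a (0.07 after subtraction), Rpl18 (0.08), Rpl26 (0.08) and Rps9 (0.08). The loosest were Rpl24 (0.27), Rpl13a (0.25), Rpl36 (0.24), Rpl8 (0.24) and Rpl41 (0.24), followed by Rps12 (0.24). Over the whole family the lowest SDs, with nothing subtracted, were those of Rpl7l1 (0.35), Rps27l (0.47), Rpl10 (0.49) and Rpl7 (0.50), and the highest those of Rpl3l (2.58), Rpl39l (1.51), Rps4l (1.05), Rpl22l1 (0.76), Rpl36 (0.74) and Rpl24 (0.69).

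**Figure D2:**
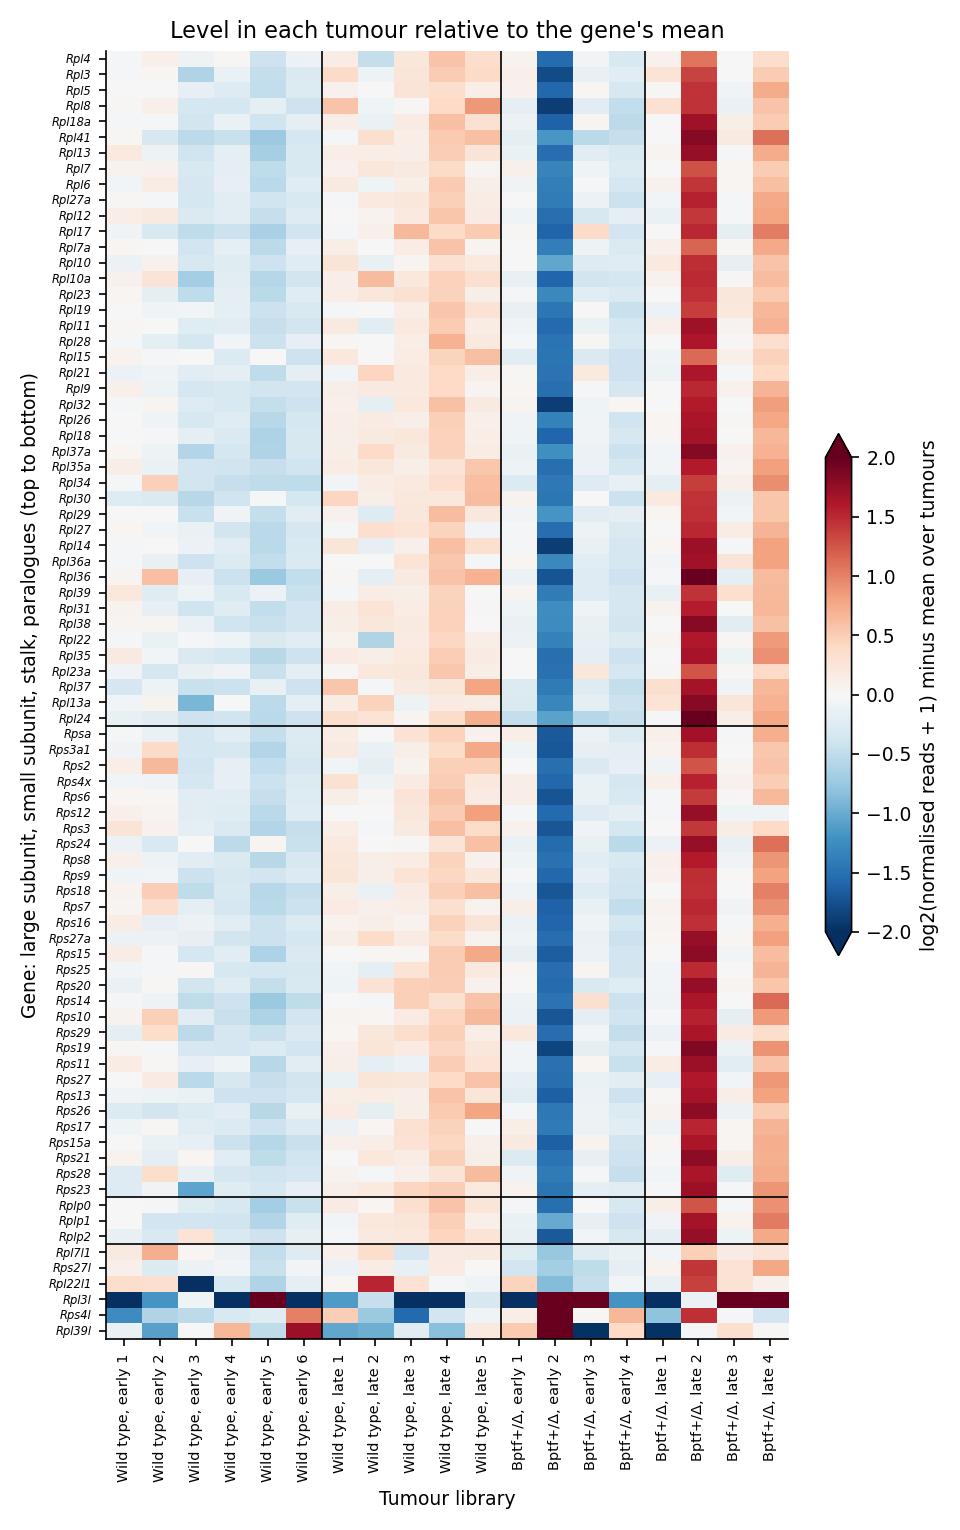
Level of 82 of the 83 genes (rows, by role and then mean level) in each tumour (columns), as log2(normalised reads + 1) minus the gene's mean over tumours; colours saturate at 2. The canonical rows are nearly uniform down each column, lowest in Bptf+/Δ early replicate 2 and highest in Bptf+/Δ late replicate 2, while the paralogue rows at the bottom break that pattern.

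Single tumours departed from the block in single genes. Rps12, a small subunit gene, stood 0.53 above the block in wild-type late replicate 5 and -0.78 below it in Bptf+/Δ late replicate 4, where it had 24218 normalised reads against 84992 in Bptf+/Δ late replicate 2. Rpl36 stood 0.62 above the block in wild-type early replicate 2, and Rpl13a, whose protein is known for silencing inflammatory mRNAs, stood at -0.61 in wild-type early replicate 3. These deviations belong to 1 library each.

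Of all comparisons, late against early onset gave the most members past the test. Averaged over both genotypes, the late minus early difference was positive for 77 of the 77 canonical genes, with a median of 0.77 on the log2 scale (range 0.55 to 1.05), against -0.08 for all 19927 genes tested. Of the 83, 3 passed the test (limma, adjusted p under 0.05) and rose, all of the large subunit, and 0.246% of all genes rose by the same rule. At an unadjusted p under 0.05, 79 of the 83 were higher, against 8.8% of all genes. Since the canonical genes moved as a block, these and the later counts of members are not counts of independent observations. The 31 small subunit genes (median 0.78) and the 3 stalk genes (median 0.79) lay at the same size as the 43 large subunit genes (median 0.76), and none of them passed.

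Rpl24, a large subunit protein at the bridge between the subunits, had 758 normalised reads in the lowest, 835 in the median and 994 in the highest wild-type early tumour. The wild-type late tumours had 1405, 1327, 1149, 1420 and 1819. The Bptf+/Δ early tumours had 790, 524, 740 and 804, and the Bptf+/Δ late tumours 1078, 4694, 1207 and 1877. Every late tumour was above every early tumour. The difference was 1.05 ± 0.21 (SE, log2; limma adjusted p = 0.0406).

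Rpl41 had 12809, 16113 and 21832 normalised reads (lowest, median and highest) in wild-type early tumours. It had 20562, 26557, 23304, 30472 and 32055 in wild-type late tumours. The Bptf+/Δ early tumours had 18440, 9487, 14586 and 15459, and the Bptf+/Δ late tumours 21288, 74782, 24068 and 45660. The late tumours were mostly higher, with an overlap between wild-type late replicate 1, Bptf+/Δ late replicate 1 and the highest early tumour. The difference was 1.03 ± 0.22 (SE, log2; limma adjusted p = 0.0460).

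Rpl37, a zinc-binding large subunit protein, had 3323, 3499 and 4227 normalised reads (lowest, median and highest) in wild-type early tumours. It had 6664, 4491, 5149, 5388 and 7881 in wild-type late tumours. The Bptf+/Δ early tumours had 3759, 1701, 3782 and 3262, and the Bptf+/Δ late tumours 5690, 14341, 4352 and 7177. As for Rpl24, no late tumour overlapped the early ones, and the difference was 0.96 ± 0.20 (SE, log2; limma adjusted p = 0.0466).

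The sequences before the starts of these 3 genes are shown since they alone passed the test, with the ETS letters in capitals. They are the 100 bases before the start for Rpl24 (chr16:55966175-55966274, plus strand) and Rpl37 (chr15:5116513-5116612, plus), and 30 bases around the ETS match for Rpl41 (chr10:128549205-128549234, minus), whose annotated starts differ between RefSeq and GENCODE (GRCm38, RefSeq GRCm38.p6).
Rpl24: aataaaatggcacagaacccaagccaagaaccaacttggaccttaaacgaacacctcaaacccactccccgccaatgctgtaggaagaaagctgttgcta
Rpl37: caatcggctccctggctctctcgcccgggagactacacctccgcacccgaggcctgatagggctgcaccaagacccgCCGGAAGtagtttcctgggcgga
Rpl41: agtaaggcagCCGGAAGtcgctgtctcgag
Rpl37 and Rpl41 hold the ETS letters and a pyrimidine run in their windows. The window of Rpl24 holds none of the 5 patterns searched.

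The onset difference differed in size with the libraries and tools used. edgeR called 12 members higher (1.78% of all genes) and DESeq2 76 (7.22%). Without Bptf+/Δ early replicate 2 and Bptf+/Δ late replicate 2 the canonical median was 0.43 and no member passed (limma). Leaving out 1 library gave 0 calls for any wild-type early tumour, wild-type late replicates 1, 2 and 4, Bptf+/Δ early replicates 1, 3 and 4 and Bptf+/Δ late replicates 2 and 4. It gave 1 call without wild-type late replicate 5, 22 without Bptf+/Δ late replicate 1 and 31 without Bptf+/Δ late replicate 3. The share of all genes called in each of these fits with libraries left out is not given here. Plasma cell markers (6 genes, median 1.85), T cell markers (10 genes, 0.85) and cartilage and muscle markers (9 genes, -2.74) had these late minus early medians with no marker called, and their part in the result was not tested. Non-member genes with short mRNAs moved the same way, with a median of 0.42 for the 564 genes under 1000 bases and -0.16 for the 4276 genes over 3000 bases.

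The wild-type tumours alone, which include neither extreme library, gave smaller differences in the same direction. Every wild-type late tumour was above every wild-type early tumour for 20 of the 77 canonical genes, against 0.502% of all genes. Among them were Rpl24 and Rpl37, the small subunit genes Rps19 and Rpsa, Rpl5, and the stalk gene Rplp0. In a limma fit on these 11 libraries the canonical median was 0.44, and 71 of 77 were higher at an unadjusted p under 0.05, against 4.07% of all genes. None passed the adjusted test, the smallest adjusted p being 0.358, and 0 of 18092 genes were called (0%). In the authors' deposited table, 28 of 81 members with a p were higher in wild-type late than early tumours at an adjusted p under 0.05 (1.38% of its genes) and 0 were lower (0.561%), led by Rpl24 with a log2 fold change of 0.73 and an adjusted p of 0.000385. In the Bptf+/Δ tumours every late tumour was above every early one for 31 of 77 (3.51% of all genes), and the authors' deposited table called 0 of 81 (1.39% of its genes higher and 2.94% lower) with a canonical median of 1.25. Over all 19 tumours, 6 canonical genes had every late tumour above every early one (0.0401% of all genes), namely Rpl24, Rpl26, Rpl37, Rps9, Rps13 and Rps27a.

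**Figure D3:**
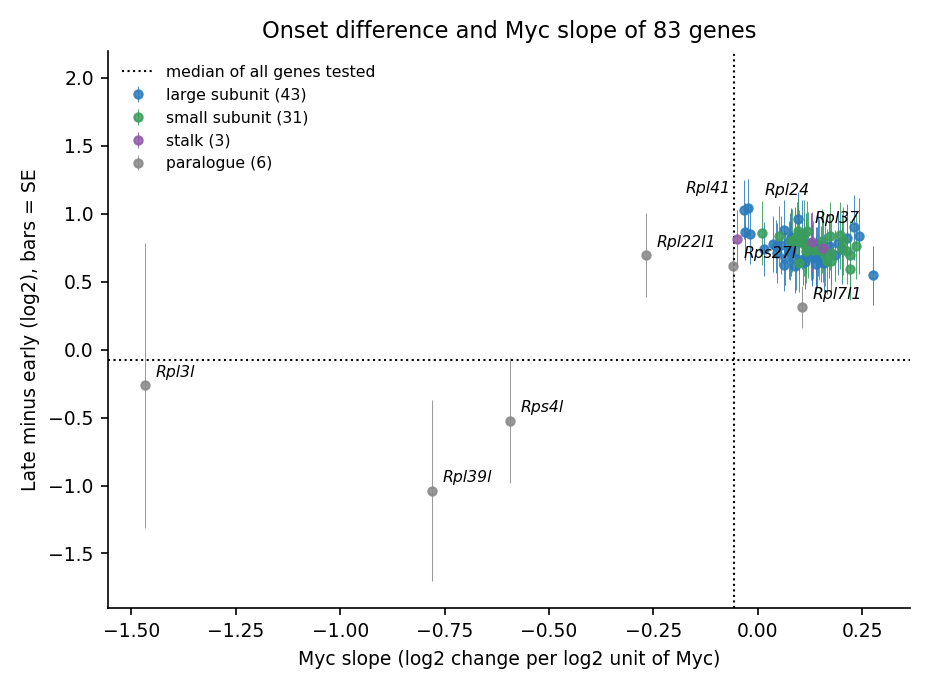
Late minus early difference (vertical, log2, bars are SE) against Myc slope (horizontal, log2 change per log2 unit of Myc) for each of the 83 genes, coloured by role; dotted lines are the medians of all genes tested. The canonical genes cluster between 0.55 and 1.05 for onset and within -0.05 to 0.28 for Myc, apart from the named paralogues.

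Of the listed genes of translation outside the family, Fau and Eif3h passed the onset test. Fau rose (1.0 ± 0.21 SE, limma adjusted p = 0.0434). Of 20 other genes with terminal oligopyrimidine mRNAs, 1 rose, Eif3h, an initiation factor subunit (0.75, adjusted p = 0.0498), and the list's median was 0.55. Of 18 nucleolar genes for rRNA synthesis and processing, none passed and the median was 0.14. None of 5 chaperones of ribosomal proteins (median 0.15), 12 mTOR pathway genes (median -0.06) or 8 genes of the Mdm2 and p53 arm that Rpl5 and Rpl11 reach (median -0.06) passed.

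Rpl5 and Rpl11 bind Mdm2 when ribosome assembly is disturbed. Rpl5 had 18571, 22550 and 25988 normalised reads (lowest, median, highest) in wild-type early tumours and 27720, 26314, 31169, 33078 and 28618 in wild-type late tumours, which do not overlap, while its Bptf+/Δ tumours did (8750 to 27554 early, 24662 to 71180 late). Rpl11 had 11736, 13807 and 16551, against 18356, 13764, 18491, 22918 and 17944, with one late tumour inside the early range. Their onset differences were 0.68 ± 0.23 and 0.77 ± 0.23 (SE, log2; limma adjusted p = 0.131 and 0.0969). Rpl8, which encodes a large subunit protein near the catalytic centre, followed the called genes in size, with 0.90 ± 0.24 (adjusted p = 0.0755).

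Among small subunit genes, Rps19, whose loss of dose causes Diamond-Blackfan anaemia in people, had 9960, 10592 and 13318 normalised reads (lowest, median, highest) in wild-type early and 13870, 15402, 14508, 17363 and 15246 in wild-type late tumours, without overlap. The Bptf+/Δ tumours had 12489, 3626, 11390 and 10187 early and 12634, 46717, 11917 and 24230 late, and here the late replicate 3 lay below the early replicate 1. The onset difference was 0.85 ± 0.25 (SE, log2; limma adjusted p = 0.0989). Rpsa, needed for assembly of the small subunit, also had wild-type late tumours (44045 to 61021) above all wild-type early tumours (31676 to 42725). Its Bptf+/Δ tumours overlapped (13802 to 48308 early, 42740 to 141316 late), and the difference over both genotypes was 0.77 ± 0.25 (adjusted p = 0.115). Rps6, the substrate of the S6 kinases, had 18928 to 26820 in wild-type early and 26546 to 38623 in wild-type late tumours, with 1 late tumour inside the early range, and a difference of 0.71 ± 0.23 (adjusted p = 0.122).

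The stalk is formed by Rplp0, which anchors it to the ribosome, and the acidic proteins Rplp1 and Rplp2. Rplp0 had 31047 to 49632 normalised reads in wild-type early and 50769 to 73813 in wild-type late tumours, without overlap. In Bptf+/Δ tumours it overlapped, with 17449 to 49357 early and 48035 to 118392 late. In wild-type tumours Rplp1 (15608 to 23374 against 22462 to 32380) and Rplp2 (7596 to 12337 against 9882 to 13703) overlapped. Their onset differences were 0.79 ± 0.22, 0.82 ± 0.21 and 0.75 ± 0.25 (SE, log2; limma adjusted p = 0.0879, 0.0686 and 0.127). Rplp2 in wild-type early replicate 3 was above every other early tumour, while Rplp0 and Rplp1 there were not.

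No canonical gene passed the test for a course with Myc. Myc ranged from 1232 normalised reads in Bptf+/Δ early replicate 2 to 16555 in wild-type early replicate 3. No member rose with Myc and 1 fell, the paralogue Rpl3l (-1.47 ± 0.53 SE per log2 unit of Myc, limma adjusted p = 0.0452), whereas 11.8% of all 19926 genes tested rose and 15.9% fell. The canonical slopes ran from -0.05 to 0.28 with a median of 0.12, against -0.06 for all genes; this median was negative in edgeR (-0.03), DESeq2 (-0.04) and without Bptf+/Δ early replicate 2 (-0.24), -0.17 without the 3 libraries not led by Eef1a1, and positive under quantile, total read and TMM scaling. At an unadjusted p under 0.05, 1 canonical gene was higher (16.6% of all genes) and 3 paralogues, Rpl3l, Rpl39l and Rps4l, were lower (23% of all genes). The canonical gene was Rpl4, a large subunit protein lining the exit tunnel (0.28 ± 0.12, adjusted p = 0.0857). Rpl4 passed, and rose, under quantile normalisation, total read scaling, with the group means as covariates and without Bptf+/Δ late replicate 2, and edgeR and DESeq2 called 0 members higher and 3 lower. Rpl36 (0.24), Rps3a1 (0.24), Rpl8 (0.23), Rps12 (0.22) and Rps2 (0.22) followed, with adjusted p from 0.233 to 0.310. At the low end stood Rplp1 (-0.05, adjusted p = 0.833) among the canonical genes. Under quantile normalisation 23 members rose with Myc, and 8 without Bptf+/Δ late replicate 2. Shares of all genes called in these alternative fits, edgeR and DESeq2 included, are not given here. The counts of members in them are therefore not set against all genes, of which 11.8% rose in the limma fit on all 19 tumours.

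The mean level of the 83 genes had a Pearson r of 0.124 with Myc over 19 tumours and a Spearman rho of -0.0667. Leaving out the pair of tumours with Myc most distant from its median (Bptf+/Δ early replicate 2 and wild-type late replicate 2) gave an r of -0.467. Without Bptf+/Δ early replicate 2 r was -0.376, without Bptf+/Δ late replicate 2 it was 0.367, and without both -0.227. Within wild type r was 0.00796 (n = 11), and 0.414 without its 2 tumours of most distant Myc level. Within Bptf+/Δ it was 0.287 (n = 8), and -0.885 without its 2. It was 0.829 within early tumours (n = 10) and -0.225 within late tumours (n = 9). Of the libraries left out one at a time, Bptf+/Δ early replicate 2 was the one whose omission turned the sign. These values share the scaling of the libraries and are given as a description.

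The nucleolar genes that build the ribosome, measured in the same libraries, followed Myc. Of the 18 listed, 17 rose with Myc (limma, 11.8% of all genes), with a median slope of 0.52, led by Polr1b, a subunit of RNA polymerase I (0.65 ± 0.06, adjusted p = 7.95e-06), and by Mybbp1a (0.55), Gnl3 (0.62) and Utp20 (0.62). Their mean had an r of 0.906 with Myc, and 0.927 without Bptf+/Δ early replicate 2 and Bptf+/Δ late replicate 2. With the mean of the ribosomal protein genes its r was 0.441 (rho 0.139), and -0.0693 without those libraries. Of the 20 other oligopyrimidine genes 4 rose (Npm1 0.53, Pabpc1 0.39, Hnrnpa1 0.37 and Eif3l 0.30). The r of their mean with Myc was 0.405 (rho 0.0263), and 0.0401 without the same libraries. With the ribosomal protein genes it was 0.915, and 0.852 without them. Of 5 chaperones 3 rose (Grwd1, Bccip and Tsr2), of 12 mTOR pathway genes 3 (Larp1, Eif4e and Eif4ebp2), and of the 8 Mdm2 and p53 genes 1 rose (Mdm4) and 3 fell (Cdkn1a, Ccng1 and Phlda3). Larp1, the repressor of oligopyrimidine mRNAs, had a slope of 0.31 ± 0.06 (adjusted p = 0.00140). The B cell markers moved with Myc too, and 5 of 9 rose (median 1.07). Of the 9 cartilage and muscle markers 5 fell (median -2.21), against 15.9% of all genes. Calls in the same direction were made for 6 of 9 macrophage, 4 of 8 stromal and 3 of 6 plasma cell markers. They were also made for 3 of 10 T cell markers and 1 of 7 endothelial markers, and 0 of 3 salivary markers passed. The part of all these markers in the slopes was not tested.

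**Figure D4:**
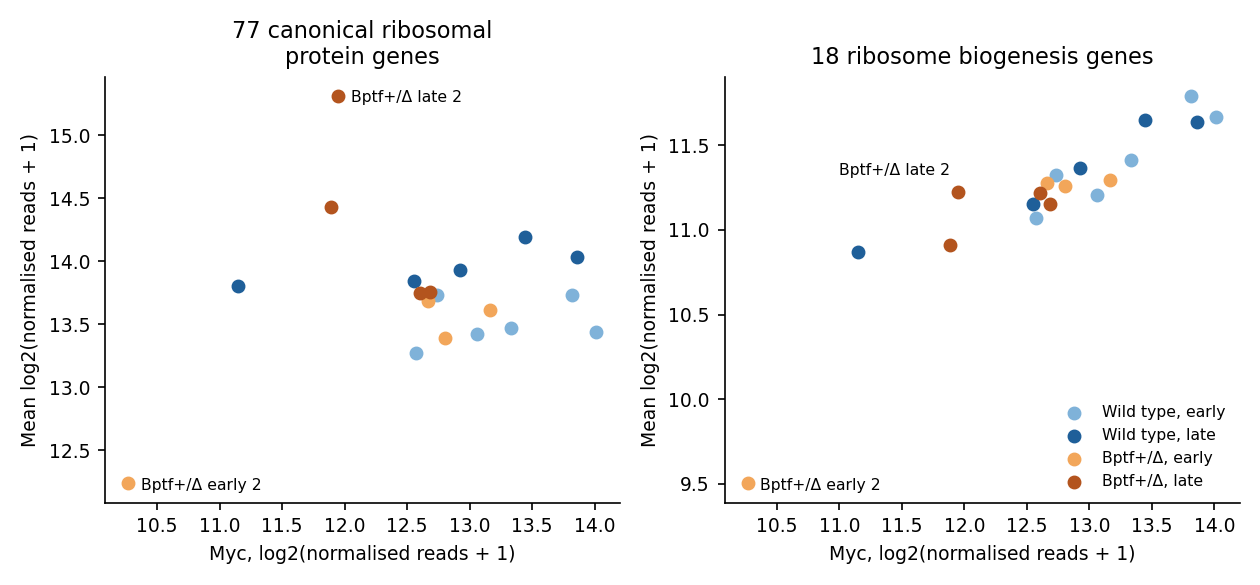
Mean log2(normalised reads + 1) of the 77 canonical ribosomal protein genes (left) and of 18 ribosome biogenesis genes (right) against the level of Myc in each tumour, on log2 axes, coloured by genotype and onset class. The biogenesis genes follow Myc, whereas the ribosomal protein genes lie between 13.27 and 14.43 except in Bptf+/Δ early replicate 2 (12.24) and Bptf+/Δ late replicate 2 (15.31).

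No member passed the test between Bptf+/Δ and wild-type tumours. Averaged over onset, 0 of 83 passed (limma, 0% of all genes), with a canonical median of 0.04, which was -0.12 under quantile normalisation and -0.07 under total read scaling, and 1 was higher at an unadjusted p under 0.05 (Rpl3l, adjusted p = 0.493; 9.98% of all genes in either direction). In early tumours 0 passed (0%; 0 at an unadjusted p under 0.05, against 11.5% of all genes) with a canonical median of -0.28. In late tumours 0 passed (0%; 1, Rps27l, at an unadjusted p under 0.05, against 6.13%) with a median of 0.35. The interaction had 0 (0%; 3 at an unadjusted p under 0.05, Rps27l, Rpl22 and Rpl13a, against 6.94%) and a median of 0.62, which was -0.03 without Bptf+/Δ early replicate 2 and Bptf+/Δ late replicate 2. Without these, the early and late medians were 0.04 and 0.02. edgeR and DESeq2 also called 0 members in each of the 4 comparisons, for which their shares of all genes are not given here. A difference between the genotypes was thus not detectable with these tumours. The largest averaged differences were Rpl3l at 2.43 ± 1.05, Rps4l at 0.91 ± 0.46 and Rpl39l at 0.51 ± 0.66, then Rplp1 at 0.19 ± 0.21, and at the other end Rpl15 at -0.19 ± 0.19, Rpl8 at -0.15 ± 0.24, Rps12 at -0.13 ± 0.25 and Rpl7l1 at -0.12 ± 0.15 (SE, log2; limma adjusted p from 0.493 to 0.835). Without Bptf+/Δ early replicate 2, Rpl3l was 1.60, Rps4l 0.56 and Rpl39l -0.15, and with the non-tumour score as a covariate Rps4l was 0.16. The authors' deposited table called 0 members in the genotype comparison over all tumours (0.319% of its genes higher and 0.0184% lower), in early tumours (1.65% and 0.441%) and in late tumours (0.0803% and 0.0292%).

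The paralogues departed from the block. Rpl22l1, which can replace its relative Rpl22 and whose mRNA Rpl22 protein is known to bind, had 2306 normalised reads in wild-type late replicate 2, where Rpl22 was at 4294, its lowest outside the cartilage-rich library. The ratio of Rpl22l1 to Rpl22 was 53.7% in that tumour, 3.19% in wild-type early replicate 3 and 7.27% to 18.2% in the other 17. The Rpl22l1 level itself ranged from 201 (wild-type early replicate 3) to 2306, and Rpl22's from 2543 to 19751. Rpl22l1 had an onset difference of 0.69 ± 0.31 (limma adjusted p = 0.237) and a Myc slope of -0.27 ± 0.17 (adjusted p = 0.261). Its slope passed the test and was larger without Bptf+/Δ early replicate 2 (-0.71, adjusted p = 0.0161), without that library and Bptf+/Δ late replicate 2 (-0.63, adjusted p = 0.0363) and without the 3 libraries not led by Eef1a1 (-0.78, adjusted p = 0.0291), and it was -0.13 without wild-type late replicate 2 and -0.10 without wild-type early replicate 3.

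Rps27l, a p53 target close to Rps27, ran at 7.98% to 21% of Rps27, with the highest ratio in Bptf+/Δ early replicate 2, and Rpl7l1, a homologue of Rpl7 found in the nucleolus, at 4.72% to 12.8% of Rpl7. These paralogues had the lowest SDs of the family, and Rpl7l1 stood at -1.09 relative to the canonical mean in Bptf+/Δ late replicate 2. Their onset differences were 0.61 ± 0.15 for Rps27l (limma adjusted p = 0.0648) and 0.31 ± 0.15 for Rpl7l1 (adjusted p = 0.273).

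Rpl3l (the form of Rpl3 in skeletal and heart muscle), Rpl39l (known from testis) and Rps4l were near absent from most tumours. Rpl3l had 381 normalised reads in Bptf+/Δ early replicate 2, 122 in Bptf+/Δ late replicate 3, 26.1 in Bptf+/Δ early replicate 3, 24.1 in Bptf+/Δ late replicate 4 and 20.5 in wild-type early replicate 5, and at most 2.95 in the rest. Rpl39l had 124 and Rps4l 145 in Bptf+/Δ early replicate 2, against at most 11.9 and 46.1 elsewhere. That library had the lowest canonical levels and 92596 normalised reads of Acta1, the skeletal muscle actin, and Acta1 was 803 in Bptf+/Δ early replicate 3 and 206 in wild-type early replicate 5. Acta1 was 6.29 in Bptf+/Δ late replicate 3 and 0 in Bptf+/Δ late replicate 4. The part of muscle tissue in Rpl3l was not tested. Their onset differences were -1.04 ± 0.66 for Rpl39l, -0.52 ± 0.46 for Rps4l and -0.26 ± 1.05 for Rpl3l (SE, log2; limma adjusted p from 0.407 to 0.918), and -0.37, -0.17 and 0.57 without Bptf+/Δ early replicate 2. Rps4l had a Myc slope of -0.59 (adjusted p = 0.0694) and Rpl39l of -0.78 (adjusted p = 0.0848), and both passed without wild-type late replicate 2 (-0.81 and -1.06, adjusted p = 0.0156 and 0.0229). Without Bptf+/Δ early replicate 2, the slope of Rpl39l was 0.10 (adjusted p = 0.869) and that of Rps4l -0.12. With the non-tumour score as a covariate, the slope of Rps4l was 0.13. Rpl3l's slope was -0.63 without Bptf+/Δ early replicate 2, with an adjusted p of 0.556. The call of Rpl3l was also lost, at adjusted p from 0.0526 to 0.0697, without wild-type early replicate 2, 4 or 6, wild-type late replicate 3 or 4, Bptf+/Δ early replicate 4 or Bptf+/Δ late replicate 4.

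The canonical genes Rpl3, Rpl8, Rpl30 and Rpl37 lie on chromosome 15, which also carries the endogenous Myc gene (GENCODE M21 on GRCm38, at chr15:80077791-80091868 for Rpl3, chr15:76904078-76906314 for Rpl8, chr15:34440505-34443640 for Rpl30 and chr15:5116645-5119140 for Rpl37). In 4 tumours the other 379 chromosome 15 genes stood above their own means, by a median of 0.36 in wild-type early replicate 5, 0.38 in wild-type late replicate 1, 0.56 in wild-type late replicate 5 and 0.26 in Bptf+/Δ late replicate 1. In the other 15 tumours this median was -0.38 to -0.003. In the 4 tumours the 4 ribosomal protein genes stood 0.27 to 0.40 above the 73 canonical genes on other chromosomes, and in the other 15 they stood -0.20 to -0.02 relative to them, without overlap. Gene by gene the gap was 0.32 to 0.52 for Rpl37 in the 4 tumours and -0.34 to 0.08 in the others, and 0.28 to 0.59 against -0.39 to 0.10 for Rpl8. For Rpl30 it was 0.20 to 0.45 against -0.29 to 0.12, while for Rpl3 the ranges overlapped, at 0.01 to 0.29 against -0.30 to 0.15. Of the 4 tumours 3 were late, and the onset differences of Rpl37 and Rpl8 were among the 4 largest of the family. The part of the chromosome 15 shift in those differences was not tested.

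**Figure D5:**
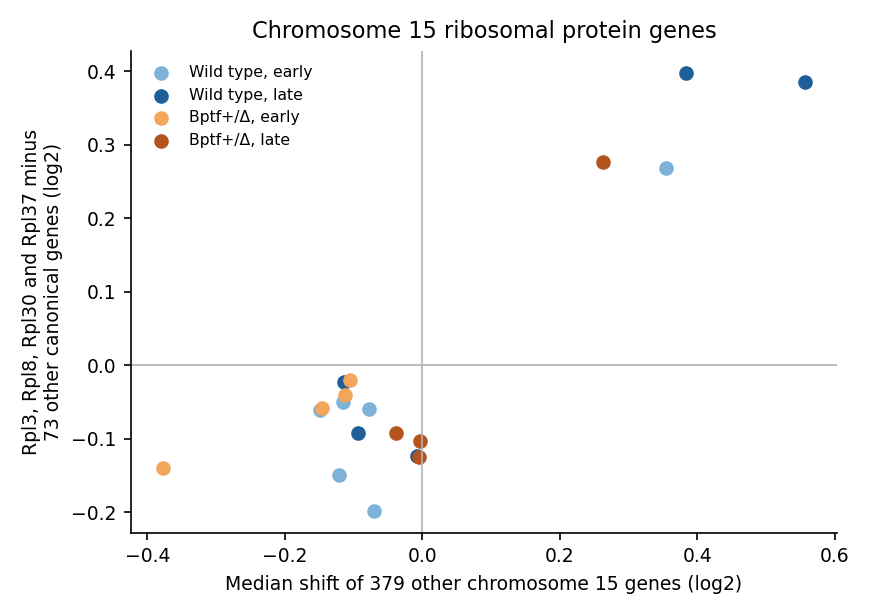
Mean of Rpl3, Rpl8, Rpl30 and Rpl37 minus the mean of the 73 other canonical genes (vertical, log2, each gene relative to its own mean over tumours) against the median shift of 379 other chromosome 15 genes (horizontal, log2) in each tumour, coloured by genotype and onset class. The 4 tumours with a shift of 0.26 to 0.56 sit at 0.27 to 0.40, and the other 15 between -0.20 and -0.02.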

How the data were processed

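Polyadenylated RNA from 19 tumours was sequenced. Libraries were TruSeq preparations run on a Genome Analyzer IIx, per the labels' protocols. The submitters' processing notes list Cuffdiff, Cuffnorm, Cufflinks 2.2.1, TopHat2 2.1.1 and FastQC 0.11.5, with GRCm38 as the build. The tool behind each value and the strand setting are not given in the sources used here. Per gene, the deposited signal is a normalised read count: dividing by each library's value of 1 read gave whole reads for 400634 of 400634 values (100%, within 0.01). The authors also deposited log2 fold changes and adjusted p-values for 5 comparisons; their sign is the second named group over the first.

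The members, lists and tests were chosen with earlier results of these data known. Genes with at least 1 normalised read in at least 4 libraries were fitted with limma 3.58.1 (R 4.3.3) on log2(value + 1), with Benjamini-Hochberg adjustment over all genes. This scale makes the fold changes of low genes too small. An FPKM-like unit had been assumed when the test was planned; the limma test was kept. Group comparisons used 4 group means over all 19 libraries. The Myc slope used log2(Myc + 1) alone. edgeR 4.0.16 (quasi-likelihood) and DESeq2 1.42.0 were run on the recovered reads as alternatives. The fits were tested on simulated data in which each gene was drawn independently, without shifts shared by a family. That simulation therefore does not address calls on genes that move as a block. Members were named by size of Myc slope, onset or genotype difference, by spread, by level per kilobase, as paralogue pairs and for known roles; a group mean of at least 10 was required for ranking. Up to 4 genes of smallest p were named per list. Members named for a deviation from the block or for groups without overlap were picked after their values were seen. Alternatives were other pseudocounts (0.1), filters, scalings and tools, a non-tumour score as covariate, and leaving out libraries; the wild-type fit and the fit without Bptf+/Δ early replicate 2 and Bptf+/Δ late replicate 2 were added after the data were seen. Lengths are principal transcripts of GENCODE M21. Shares are counting values at a depth of 8297856 to 12497732 reads, so the spread between tumours far exceeds counting error. P-values set each difference or slope against the spread among tumours, which limma estimated with information from all genes. The labels describe no molecular identifiers, so PCR copies count as reads. Another 4 rows share a symbol with a different row. Plots were drawn with matplotlib 3.10.9 (Python 3.11.15). Results on some genes are not reported here.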

Additional observations from a re-analysis of the deposited data

Results flagged for a closer look

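Within groups of 4 to 6 tumours, 12 values stood apart from the rest of their group by the gap to the nearest other tumour among 132 groups tested. Chance alone gives this in about 1 in 20 groups of independent values. That rate is no yardstick here, since some genes were named for their spread over these same tumours. The groups also share libraries, and the canonical genes moved as a block. The share of reads on the 83 genes was 3.376% in Bptf+/Δ early replicate 2 and 27.01% in Bptf+/Δ late replicate 2. Bptf+/Δ early replicate 2 also stood apart for Rpl3l (381.5 normalised reads), Rpl39l (123.6), Rps4l (144.9), Rps3a1 (9844) and Rps27 (4089), and Bptf+/Δ late replicate 2 for Rps12 (84990). Among wild-type tumours, Rpl22l1 had 2306 in late replicate 2, Rplp2 12340 in early replicate 3, Rpl3l 20.47 in early replicate 5 and Rps4l 33.06 in early replicate 6.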

How the results depend on the processing

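No paired analysis was made, because each library is a tumour of its own. The replicate numbers used here are not in the labels. The cause of the changes below was not tested, and the fits without Bptf+/Δ early replicate 2 and Bptf+/Δ late replicate 2 (the pair) and on wild-type tumours alone were chosen after seeing the data. The onset median of the canonical genes stayed positive in every fit (0.3751 to 0.788, and 0.586 to 0.8578 with 1 library left out), while the number of members called higher was 0 under total read scaling (where the median of all genes was -0.20 against -0.08), 0 without the 3 libraries not led by Eef1a1, 0 without the pair, 0 in wild-type tumours alone, 18 with the non-tumour score as a covariate, 12 with edgeR, 76 with DESeq2 and 0 to 31 with 1 library left out. Members called higher with Myc numbered 23 under quantile normalisation, 1 under total read scaling, 1 with the group means as covariates and 0 to 8 with 1 library left out. Members called lower with Myc numbered 0 with a pseudocount of 0.1, quantile normalisation, total read scaling, the non-tumour score or the group means, 3 with edgeR, 3 with DESeq2 and 0 to 3 with 1 library left out. Shares of all genes called are given above for the onset fits with edgeR, with DESeq2 and on wild-type tumours alone. For the other counts in this paragraph they are not given, so those counts are not set against all genes. The correlation of the family's mean with Myc was -0.293 without the 3 libraries, 0.34 over deviations from group means, -0.227 without the pair and -0.376 to 0.367 with 1 library left out. The interaction median was -0.02632 without the pair.

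Single genes changed sign as follows. For the Myc slope, Rplp1 was 0.03558 under quantile normalisation, 0.01537 under total reads and 0.05012 with group means, Rps27l 0.01977 under total reads, and Rps4l 0.1323 with the non-tumour score. Without the 3 libraries the slopes were Rpl39l 0.1097, Rps12 -0.09164, Rpl8 -0.09485, Rps3a1 -0.03539 and Rpl36 -0.01471, and without the pair Rpl39l 0.142, Rps4l 0.05899 and Rpl8 -0.005143. With 1 library left out the Myc slopes ran from -1.064 to 0.1021 for Rpl39l, -0.05605 to 0.2986 for Rps2, -0.06956 to 0.3259 for Rps12, -0.1466 to 0.3206 for Rpl8, -0.08775 to 0.3262 for Rps3a1, -0.08468 to 0.3597 for Rpl36, -0.2948 to 0.01652 for Rps27l and -0.3747 to 0.03999 for Rplp1. For genotype, the non-tumour score gave Rpl15 0.02397, Rpl8 0.04218, Rps12 0.07549 and Rpl39l -0.4398, omission of the 3 libraries Rpl8 0.02123, Rps12 0.1132 and Rpl39l -0.06542, omission of the pair Rpl39l -0.218, and Rps12 was 0.01168 in edgeR and 0.02045 in DESeq2. With 1 library left out genotype values ran from -0.3004 to 0.04676 for Rpl8, -0.3558 to 0.04261 for Rps12 and -0.1529 to 1.007 for Rpl39l. For onset, Rps4l was 0.03836 and Rpl3l 0.2421 without the 3 libraries, Rpl3l 0.8125 without the pair, and Rpl3l ran from -0.8558 to 0.5741 with 1 library left out. Depth was similar among libraries, so it limits mainly the paralogues with few reads.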
